A study of Mus musculus with 12 samples.

Results

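Mitochondrial ribosomal protein genes were the 78 of 54532 listed genes that are annotated as protein-coding and whose symbol begins with Mrpl or Mrps followed by a digit, 49 named for the large and 29 for the small subunit. Symbols were joined to the listed Ensembl IDs. RNA was measured by sequencing in islets of Langerhans from male C57BL/6 mice labelled 40 weeks old, in 4 groups of 3 libraries: KO and WT mice on a high fat diet (HFD KO, HFD WT) and KO and WT mice on a standard diet (STD KO, STD WT). KO mice lacked Sirt3, the mitochondrial NAD-dependent deacetylase, selectively in beta cells. The labels do not name the promoter that drove the deletion, and bulk islets keep alpha, delta, endothelial and other cells, in which the gene was not targeted. High fat food, with 60% of calories from fat, was given for 36 weeks after 4 weeks of standard food in HFD WT mice. In the HFD KO group the earlier period was 6 weeks for libraries 1 and 3 and 5 weeks for library 2, so genotype and this period cannot be told apart within the high fat groups. The periods of HFD KO libraries 1, 2 and 3 add to 42, 41 and 42 weeks, which conflicts with their labelled age, while those of HFD WT add to 40 weeks. STD mice ate only standard food, with 6.2% fat. The labels do not say that each library came from another mouse, so p-values measure the spread between these libraries.

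The mitochondrial ribosome sits in the matrix and translates the few mRNAs encoded by mitochondrial DNA, all of which specify subunits of the respiratory chain or the ATP synthase. Its rRNAs are mitochondrially encoded, while every one of its proteins is made from nuclear genes in the cytosol and imported. In beta cells the respiratory chain couples glucose oxidation to the ATP rise that triggers insulin release. Some names do not match positions: structures of mammalian mitoribosomes place the products of Mrps30 and Mrps18a in the large subunit, and Mrps36 encodes a protein of the 2-oxoglutarate dehydrogenase complex. Subunits are given here by symbol.

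Total counts were 16037709 to 20864920 per library. Sirt3, the deleted gene, was counted at 7.85, 11.5 and 6.21 CPM (counts scaled to 1000000 per library, with TMM factors) in HFD KO, 11.4, 9.30 and 11.8 in HFD WT, 6.60, 5.97 and 5.86 in STD KO, and 9.04, 11.3 and 11.5 in STD WT. The library labelled HFD KO 2 lay within the range of the HFD WT libraries, and the other 5 KO libraries lay below every WT library of their diet. Log2 fold changes, list medians and edgeR calls that rest on the HFD KO group are therefore given with and without that library, except the fold changes of mt-Nd5 and mt-Co2. Levels are given for each library. The islet label fits the markers, with 10 beta cell markers, insulin genes included, summing to 215200 to 363400 unscaled CPM. Summed markers of other islet and pancreatic cell types overlapped between KO and WT libraries within each diet, except that 8 macrophage markers summed to 304 to 355 unscaled CPM in HFD KO against 141 to 244 in HFD WT, and to 249 to 367 in STD KO against 189 to 236 in STD WT. The part of macrophages in the values below was not tested. In bulk RNA, a lower share of a cell type and less RNA per cell cannot be told apart.

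Mitoribosomal genes were well expressed. Of the 78, 77 passed the filter on low counts (at least 10 counts in enough libraries for the smallest group), with 509 to 15091 counts over the 12 libraries and at least 22 in any library. Their median level was 20.3 FPKM (the deposited unit, counts scaled by gene length and library total), against 7.56 for all 16076 genes tested, and 58 reached 10 FPKM. Genes named for the large subunit had a median of 21.5 FPKM and those for the small subunit 15.9. Levels per length spanned from 2.08 ± 0.19 FPKM for Mrps30 to 110.5 ± 24.7 for Mrps21 (SD, n = 12 libraries).

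The highest of the small-subunit symbols after Mrps21 were Mrps33 with 103.1 ± 25.7 FPKM and Mrps12, a protein of the decoding centre, with 79.8 ± 16.8 (SD, n = 12). Mrpl52 with 73.5 ± 18.5, Mrpl20 with 57.0 ± 21.5 and Mrpl41 with 54.6 ± 31.7 FPKM led the large subunit. Neighbours in this order lay within 1 SD of each other between Mrps21 and Mrps33, and among Mrpl52, Mrpl20 and Mrpl41. At the low end, Mrps22 had 4.12 ± 0.84, Mrps6 4.57 ± 1.76, Mrpl47 4.98 ± 0.53, Mrpl33 5.09 ± 2.12 and Mrpl19 6.43 ± 1.15 FPKM. Neighbours in this order overlapped by their SD, but Mrps22 and Mrpl19 did not, and Mrps30 lay below all of them.

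Mrpl53 was listed with 0 counts in all 12 libraries, which allows up to 3 counts in a library, or 0.144 to 0.187 CPM, counting error alone. Its annotated span on chromosome 6 (mm10, 83109040 to 83109939, plus strand) lies within Gm42688 on the same strand. Whether its reads were counted there was not tested. In all, 42 of the 78 genes overlap another annotated gene (53.9%, against 53.0% of 14434 tested protein-coding genes), 13 of them on the same strand. The strand setting of the counting is not given in the sources used here, so values of Mrps6, which shares a strand with Slc5a3, of Mrps24, which shares one with Urgcp, and of Mrpl46 and Mrps11, which overlap each other, are uncertain. Another 5 listed genes with a matching symbol are processed pseudogenes and were not members, and the most counted, Mrpl23-ps1, had 68 counts beside 7002 for Mrpl23.

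On the high fat diet, most mitoribosomal genes were higher in KO than in WT islets by their group means, but only Mrpl50 passed the test. The log2 fold change of KO over WT was above 0 for 74 of 77 genes (96.1%, against 49.8% of all genes tested), with a median of 0.42 (−0.00 over all genes). All 48 tested large-subunit symbols and 26 of 29 small-subunit symbols were above 0, with medians of 0.41 and 0.45. Without the library labelled HFD KO 2 these medians were 0.24 and 0.21. The large-subunit symbols Mrpl3, Mrpl12, Mrpl19, Mrpl23 and Mrpl36 were then below 0. With p-values from edgeR's quasi-likelihood test adjusted by Benjamini-Hochberg over all genes, 1 gene was higher (3.9% of all genes were) and 0 were lower (3.5% of all genes were). At an unadjusted p under 0.05, 37 were higher and 1 lower, against 11.9% and 12.4% of all genes. DESeq2 called 5 higher and 0 lower, against 6.56% and 6.09% of all genes, so that neither tool called a larger share of the members as higher than of all genes.

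The size of the difference varied between the 3 KO libraries. The 77 genes had a median log2 deviation from their own means over 12 libraries of 0.374 in HFD KO 1, 0.667 in the library labelled HFD KO 2 and −0.140 in HFD KO 3, against −0.005, −0.048 and −0.183 in HFD WT. HFD KO 1 lay above all 3 HFD WT libraries for 68 genes, the library labelled HFD KO 2 for 72, and HFD KO 3 for 11 (32.6%, 32.0% and 26.4% of all genes tested). Of 5884 other genes of 767 to 1650 bp, the interquartile range of member lengths, 41.1%, 44.7% and 25.9% did. HFD KO 3 lay below all 3 HFD WT libraries for 22 genes (28.6%), a share near the 26.3% of all genes. The labels do not pair libraries. Pairs by number were inferred from these same expression values, so the values by pair below are a description and not independent support. Set against the HFD WT library of the same number, with which its deviations correlated, each HFD KO library was higher by its median gene, by 0.361 log2 units in pair 1, 0.702 in pair 2 and 0.094 in pair 3 (0.073, −0.092 and 0.001 over all genes). The KO library was the higher for 71, 74 and 48 of the 77 genes in these pairs (54.7%, 44.1% and 50.1% of all genes), and 44 genes were higher in all 3 pairs (57.1%, against 23.9% of all genes). Other genes of 767 to 1650 bp had medians of 0.187, 0.104 and 0.041 in these pairs. Of them, 64.4%, 56.75% and 54.8% were higher in the KO library, and 31.5% in all 3 pairs, so pair 3 differed little from genes of like length. The library labelled HFD KO 2 was the highest of all 12 for 65 of the 77 genes (84.4%, against 16.1% of all genes and 24.2% of other genes of 767 to 1650 bp). KO and WT values did not overlap for 10 genes that were higher (11.2% of all genes tested) and for 1 that was lower, Mrps5 (13.3% of all genes tested). With 10 of 77 being 13.0%, the share without overlap was near that of all genes.

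**Figure D1:**
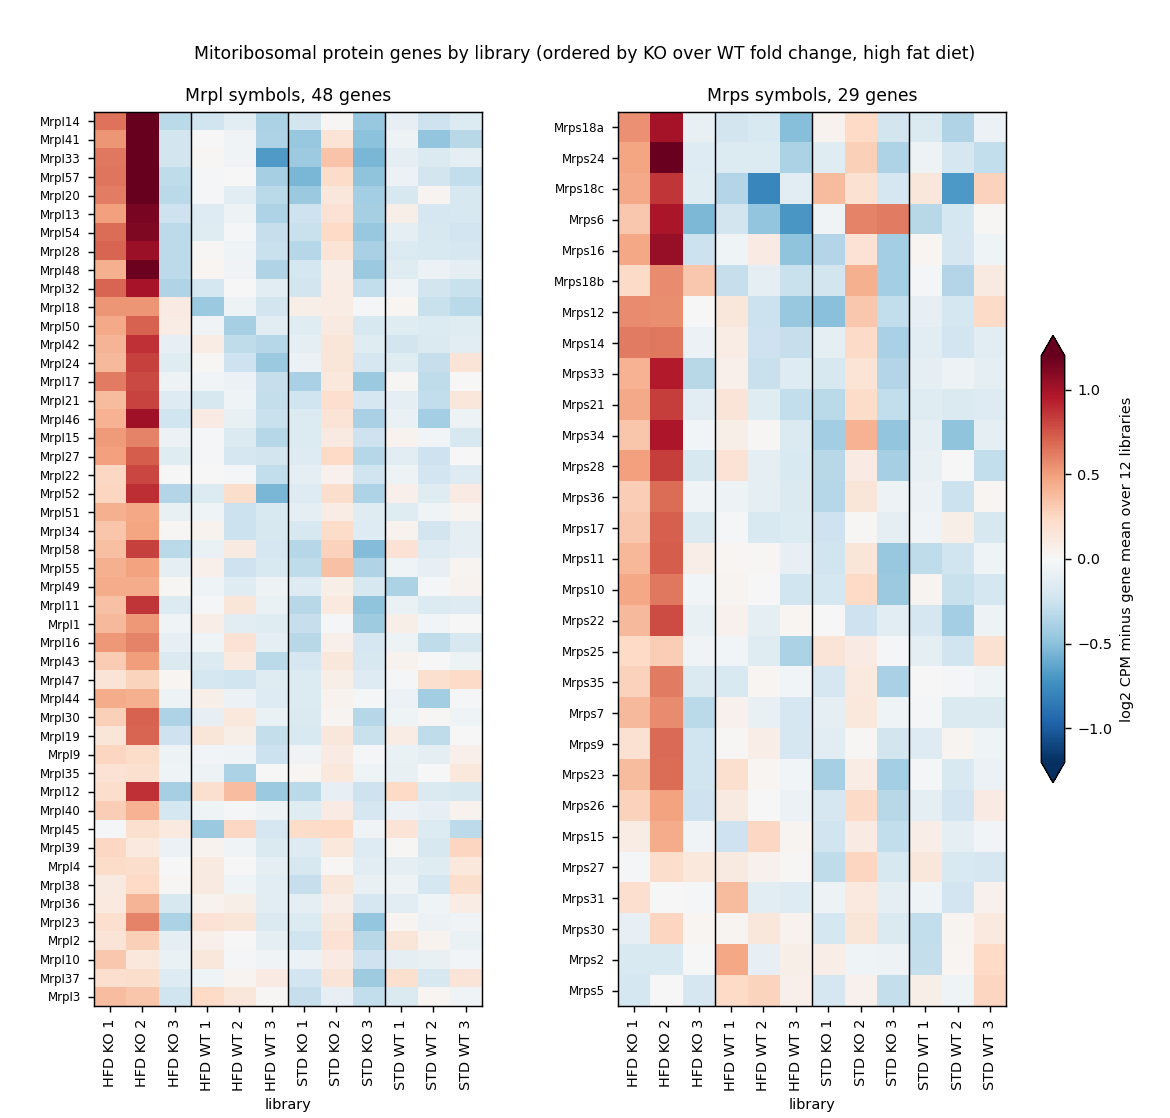
Each row is 1 of 77 tested mitoribosomal genes and each column 1 library (HFD KO, HFD WT, STD KO, STD WT, 3 each). Colour gives log2 CPM minus the gene's mean over the 12 libraries, with values past the ends of the scale drawn in its end colours, and rows run by log2 fold change of KO over WT on the high fat diet. HFD KO 1 and the library labelled HFD KO 2 are red over most rows, while HFD KO 3 resembles the WT libraries.

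Summed over each subunit, large-subunit symbols had 1471, 1863 and 1166 unscaled CPM in HFD KO and 1081, 1206 and 1026 in HFD WT, and small-subunit symbols 769.5, 951.9 and 633.3 in HFD KO and 609.9, 628.2 and 559.8 in HFD WT. HFD KO 3 lay within the HFD WT range in the large-subunit sum and just above it in the small-subunit sum, while the other HFD KO libraries lay above both ranges. The ratio of large to small sums was 1.90 ± 0.06 in HFD KO, 1.84 ± 0.07 in HFD WT, 1.84 ± 0.03 in STD KO and 1.88 ± 0.02 in STD WT (SD, n = 3 each). These ratios overlapped between KO and WT libraries on each diet.

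**Figure D2:**
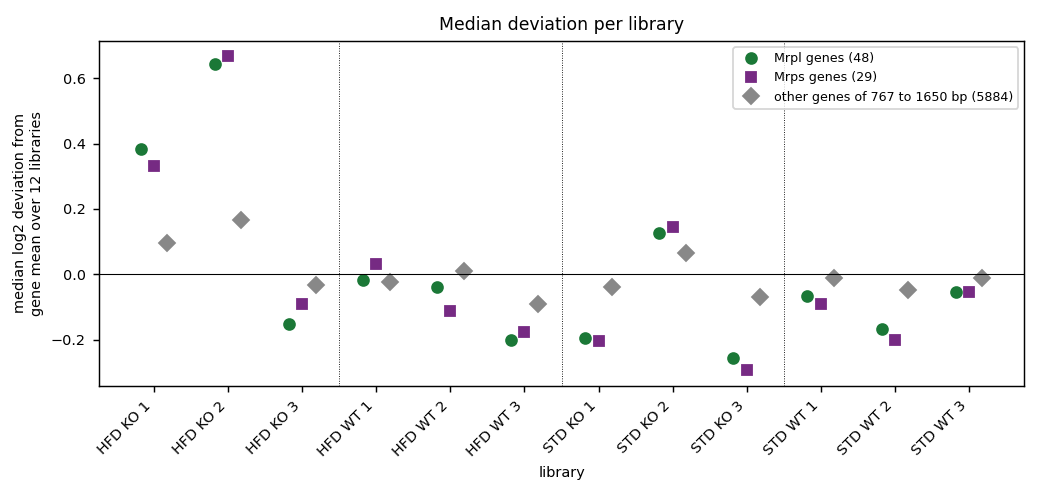
For each library, points give the median log2 deviation from the gene means over 12 libraries for 48 Mrpl genes, 29 Mrps genes and 5884 other genes of 767 to 1650 bp. Both subunits stand highest in HFD KO 1 and the library labelled HFD KO 2, where the other genes of like length reach 0.095 and 0.167.

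Among large-subunit genes, Mrpl50, a mitochondria-specific protein of the large subunit (chromosome 4, 49512596 to 49521093, minus strand), had 50.3, 59.7 and 38.9 CPM in HFD KO and 35.7, 27.8 and 33.2 CPM in HFD WT. All 3 HFD KO libraries lay above all HFD WT libraries. Its means were 49.6 ± 10.4 and 32.2 ± 4.0 CPM (SD, n = 3 each), a log2 fold change of 0.62 (SE 0.16, adjusted p = 0.0397 by edgeR's quasi-likelihood test). The call was lost in 10 of 12 fits that each left out 1 library, with adjusted p between 0.0574 and 0.155, and kept without STD KO 2 (0.0397) or HFD KO 3 (0.0101). It was also lost with the replicate number as a block (adjusted p = 0.0734, log2 fold change 0.61). With no filter on low counts its adjusted p was 0.0591, and with the compared groups alone 0.15. Without the library labelled HFD KO 2 its log2 fold change was 0.47 (adjusted p = 0.135).

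Mrpl18, a protein of the central protuberance that also carries 5S rRNA into mitochondria in human cells, had 11.9, 11.9 and 8.83 CPM in HFD KO and 6.06, 7.87 and 7.09 CPM in HFD WT. The groups did not overlap, and its log2 fold change was 0.63 (SE 0.18, adjusted p = 0.0574 by the same edgeR test), and 0.56 without the library labelled HFD KO 2. Mrpl14, which had the largest fold of the 77, had 14.96, 28.5 and 7.57 CPM in HFD KO and 8.04, 8.70 and 7.32 CPM in HFD WT. There, HFD KO 3 fell within the WT range, and a log2 fold change of 1.08 (SE 0.36, edgeR adjusted p = 0.0922) rested on the other KO libraries and became 0.49 without the one labelled HFD KO 2. Mrpl41 likewise had 42.3, 98.6 and 25.3 CPM in HFD KO and 29.3, 28.6 and 22.8 CPM in HFD WT, a log2 fold change of 1.04 (SE 0.40, edgeR adjusted p = 0.146) that became 0.33 without the library labelled HFD KO 2.

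Mrpl10, reported in bovine mitochondria as a ribosomal substrate of SIRT3, had 44.6, 38.8 and 33.7 CPM in HFD KO and 39.2, 34.99 and 34.4 CPM in HFD WT. The groups overlapped, with a log2 fold change of 0.11 (SE 0.13, edgeR adjusted p = 0.661). Mrpl12, a stalk protein that also binds the mitochondrial RNA polymerase, had 12.6, 20.1 and 8.29 CPM in HFD KO and 12.4, 14.1 and 8.01 CPM in HFD WT. These groups overlapped as well (0.24, SE 0.30, edgeR adjusted p = 0.669). Mrpl58, a peptidyl-tRNA hydrolase that rescues stalled ribosomes, had 22.7, 31.0 and 14.1 CPM in HFD KO and 16.7, 19.0 and 15.3 CPM in HFD WT, with HFD KO 3 below every WT library (0.41, SE 0.27, edgeR adjusted p = 0.39). The log2 fold changes without the library labelled HFD KO 2 were 0.11 for Mrpl10 and 0.11 for Mrpl58, and that of Mrpl12 changed sign to −0.14.

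Of the genes named for the small subunit, Mrps18a, 1 of 3 paralogs related to bacterial S18, had 41.0, 56.2 and 26.5 CPM in HFD KO and 24.1, 24.7 and 19.7 CPM in HFD WT. The groups did not overlap, and the log2 fold change was 0.85 (SE 0.23, edgeR adjusted p = 0.051). With the replicate block it passed the test (0.79, adjusted p = 0.0433), and without the library labelled HFD KO 2 it did not (0.56, adjusted p = 0.174). Its paralog Mrps18b had 6.61, 8.36 and 7.08 CPM in HFD KO and 4.67, 5.19 and 4.69 CPM in HFD WT, again without overlap and with all 3 HFD KO libraries close together (0.60, SE 0.24, edgeR adjusted p = 0.151). Mrps18c, the least counted of those tested, had 3.09, 4.07 and 2.04 CPM in HFD KO and 1.77, 1.31 and 2.06 CPM in HFD WT, which overlapped (0.83, SE 0.35, edgeR adjusted p = 0.174). These paralogs had log2 fold changes of 0.50 for Mrps18b and 0.57 for Mrps18c without the library labelled HFD KO 2.

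Mrps5, whose counterpart in the worm Caenorhabditis elegans is known to limit lifespan, had 22.7, 26.3 and 22.8 CPM in HFD KO and 31.0, 31.5 and 27.4 CPM in HFD WT, so every HFD KO library lay below every HFD WT library, including the one labelled HFD KO 2. The log2 fold change was −0.33 (SE 0.13, edgeR adjusted p = 0.162), short of the threshold. Mrps2, the counterpart of bacterial S2, had a log2 fold change of −0.29 (SE 0.17, edgeR adjusted p = 0.332) with overlapping groups, and Mrps30 of −0.00 (SE 0.18, edgeR adjusted p = 1.0). Leaving out the library labelled HFD KO 2 gave −0.40 for Mrps5 (adjusted p = 0.174), −0.26 for Mrps2 and −0.10 for Mrps30.

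**Figure D3:**
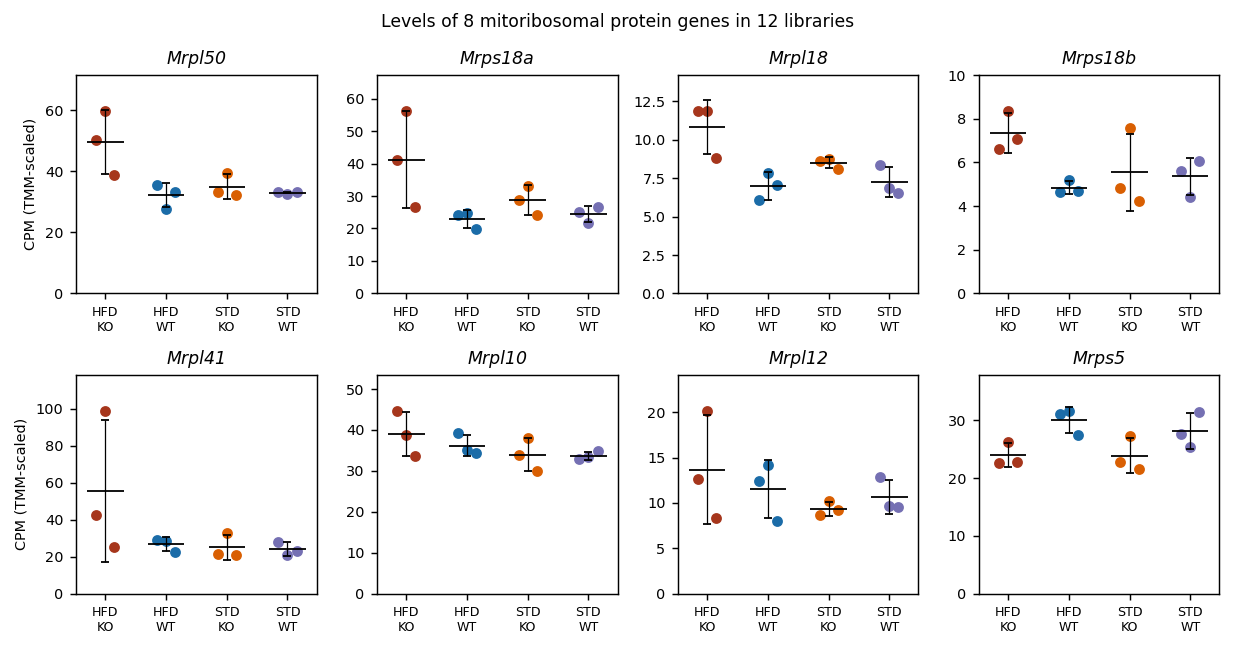
Dots are single libraries, black lines means and bars SD (n = 3 per group) of TMM-scaled CPM for 8 genes, with axes that start at 0. HFD KO dots lie apart above HFD WT for Mrpl50, Mrps18a, Mrpl18 and Mrps18b, overlap for Mrpl41, Mrpl10 and Mrpl12, and lie below for Mrps5.

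Leaving out single libraries changed the number of calls more than any other single choice. Without HFD KO 3, 39 mitoribosomal genes passed the edgeR test as higher in KO, 27 of the large and 12 of the small subunit (8.94% of all genes tested then), and their median log2 fold change was 0.62. Without the library labelled HFD KO 2 0 did, by the same test, against 2.93% of all genes, with 4 higher and 1 lower at an unadjusted p under 0.05 (9.54% and 8.56% of all genes). The median was then 0.23, and 68 of 77 were above 0 (49.5% of all genes). The count was also 0 without HFD KO 1, without any single HFD WT or STD WT library, or without STD KO 1 or 3.

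**Figure D4:**
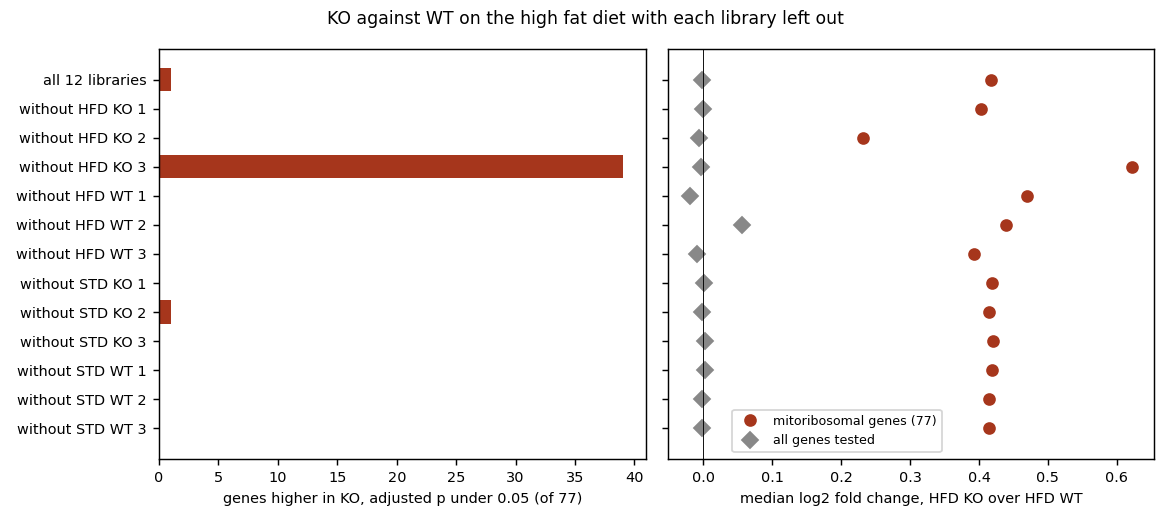
Left, bars give how many of the 77 genes passed the edgeR test (adjusted p under 0.05) as higher in HFD KO than HFD WT when 1 library was left out. Right, dots give the median log2 fold change of these genes and diamonds that of all genes tested. The count reaches 39 without HFD KO 3 and the median drops to 0.23 without the library labelled HFD KO 2.

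Most mitoribosomal genes are short (median 1122 bp, against 1799 bp over all genes tested), and on the high fat diet short genes were higher in KO across the transcriptome. Over all genes, log2 fold change and length had a Spearman rho of −0.307 (n = 16076 genes, which share the same libraries), and over the members −0.332 (n = 77). These were −0.149 and −0.26 without the library labelled HFD KO 2, and without HFD KO 3 they were −0.379 and −0.351. Divided at the quartiles of member length, members of 398 to 767 bp had a median log2 fold change of 0.57 and other genes of that length 0.36. From 768 to 1122 bp the medians were 0.36 for members and 0.19 for other genes, from 1123 to 1650 bp 0.33 and 0.07, and from 1651 to 3561 bp 0.39 and −0.10. The members' medians therefore stood above those of other genes in each of the 4 length classes. With the library labelled HFD KO 2 left out they were 0.34, 0.11, 0.20 and 0.27 from short to long, and those of other genes 0.11, 0.09, 0.04 and −0.06, so that the second class then differed by little. The dependence on length was steepest in the library labelled HFD KO 2, at −0.302 log2 units per doubling of length, with −0.111 in HFD KO 1, 0.049 in HFD KO 3, and 0.096, −0.022 and 0.103 in HFD WT.

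With a smooth length trend removed from each library, the median log2 fold change of members was 0.26 and 67 of 77 were above 0 (51.2% of all genes). By class, from short to long, members had medians of 0.27, 0.16, 0.24 and 0.53 and other genes 0.03, 0.01, 0.00 and 0.01. Spearman rho with length was then 0.009 over all genes and 0.309 over the members, whose trend with length thus changed sign rather than vanished. Without the library labelled HFD KO 2 these were 0.004 and 0.066. The corrected fit called 2 members higher by the edgeR test, Mrpl50 (0.72, adjusted p = 0.0328) and Mrps18a (0.64, adjusted p = 0.0298), against 4.67% of all genes. Without HFD KO 3 as well, 28 were called (7.26% of all genes) and 69 of 77 were above 0 (50.1% of all genes), and without the library labelled HFD KO 2 in place of it 0 were, with a median of 0.18 and 6 higher and 1 lower at an unadjusted p under 0.05 (3.6% of all genes called higher, and 11% and 8.33% at an unadjusted p under 0.05). The class medians of members were then 0.22, 0.04, 0.14 and 0.30. Cytosolic ribosomal protein genes, which are also short, had median deviations of 0.306, 0.922 and −0.359 in HFD KO and −0.253, 0.319 and −0.283 in HFD WT, highest in the library labelled HFD KO 2 and alike in HFD KO 1 and HFD WT 2. Their median log2 fold change was 0.41, and 0.03 without the library labelled HFD KO 2, where that of the mitoribosomal genes was 0.23. The part of a shift shared by all ribosomal protein genes in the mitoribosomal values was not tested.

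**Figure D5:**
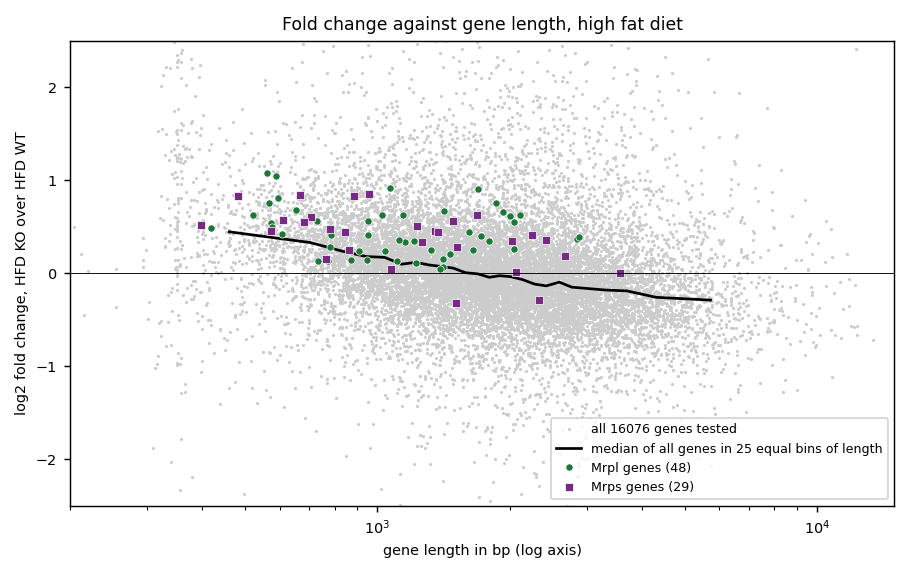
Each grey dot is 1 of 16076 genes (a few outside the axes are not drawn), placed by length on a log axis and by log2 fold change of HFD KO over HFD WT, and the black line joins medians of 25 bins of equal size. Mitoribosomal genes, 48 Mrpl circles and 29 Mrps squares, lie mostly above the black line at all lengths, and the line itself falls with length.

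Promoters were read to show which motifs members hold near their starts. Of the 78 genes, 69 had a promoter entry from 250 bases before to 50 after the start (RefSeq, GRCm38.p6). On either strand, CCGGAAG, a core bound by ETS factors such as GABPA, was present in 26 of 69 (37.7%, against 9.93% of 27025 genes with an entry). The NRF1 pattern GCGCANGCG, whose matches on the 2 strands can overlap, was in 16 (23.2%, against 7.03%), the YY1 pattern AAGATGGCG in 8 (11.6%, against 1.64%), and the ZNF143 pattern ACTACAANT in 4 (5.80%, against 1.74%). The E-box CACGTG was in 5 (7.25%, against 8.09%), CCAAT in 27 (39.1%, against 41.1%), and the ERR element TCAAGGTCA in 0 (against 0.466%). The first 4 patterns do not hold one another, and 44 of the 69 carried at least 1 of them. Also, 18 of the 78 genes (23.1%, against 9.26% of protein-coding genes tested) start head to head within 1000 bp of another gene, Mrpl50 at 83 bp from Zfp189 and Mrps5 at 128 bp from Zfp661. A letter match is not a site shown to be bound. The patterns were written after some promoters had been seen, and the longer ones were shortened after a first search, which changed their counts. For the motifs, the comparison took all genes with an entry, not the genes tested here. The motif shares therefore cannot decide whether a pattern is more frequent in members than in other genes expressed in islets. Shown 5′ to 3′ are the promoters of the called gene, of the next in p-value in each subunit, of Mrpl10 and Mrpl12 for their NRF1 matches, and of Mrps5, the gene without overlap that was lower, with matches to the first 4 patterns in capitals.
Mrpl50 (chr4:49521034-49521333, minus strand, ZNF143 match): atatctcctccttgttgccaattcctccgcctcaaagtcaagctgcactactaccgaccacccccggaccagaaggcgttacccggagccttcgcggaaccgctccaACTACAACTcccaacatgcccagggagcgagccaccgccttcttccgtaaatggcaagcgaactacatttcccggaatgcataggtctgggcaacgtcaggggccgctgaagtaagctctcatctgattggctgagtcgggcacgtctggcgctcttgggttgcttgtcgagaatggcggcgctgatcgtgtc
Mrps18a (chr17:46110754-46111053, plus strand, ETS and YY1 matches): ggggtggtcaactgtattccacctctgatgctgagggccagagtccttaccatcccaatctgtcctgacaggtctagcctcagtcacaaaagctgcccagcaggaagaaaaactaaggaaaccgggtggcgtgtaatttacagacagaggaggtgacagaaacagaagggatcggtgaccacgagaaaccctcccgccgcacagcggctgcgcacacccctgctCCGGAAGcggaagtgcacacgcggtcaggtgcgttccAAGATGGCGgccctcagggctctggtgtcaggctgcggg
Mrpl18 (chr17:12916042-12916341, minus strand, ETS match): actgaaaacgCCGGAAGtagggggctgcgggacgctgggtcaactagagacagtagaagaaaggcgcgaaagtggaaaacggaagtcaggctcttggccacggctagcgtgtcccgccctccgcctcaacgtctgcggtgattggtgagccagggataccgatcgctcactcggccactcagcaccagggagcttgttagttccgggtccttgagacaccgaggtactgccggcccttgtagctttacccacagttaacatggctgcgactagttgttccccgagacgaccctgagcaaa
Mrpl10 (chr11:97041332-97041631, plus strand, NRF1 match): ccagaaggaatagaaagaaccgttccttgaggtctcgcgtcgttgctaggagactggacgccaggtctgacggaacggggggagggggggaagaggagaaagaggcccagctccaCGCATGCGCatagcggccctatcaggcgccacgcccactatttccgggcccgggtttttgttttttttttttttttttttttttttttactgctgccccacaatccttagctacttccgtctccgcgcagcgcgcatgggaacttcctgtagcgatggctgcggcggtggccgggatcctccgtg
Mrpl12 (chr11:120484387-120484686, plus strand, NRF1 match): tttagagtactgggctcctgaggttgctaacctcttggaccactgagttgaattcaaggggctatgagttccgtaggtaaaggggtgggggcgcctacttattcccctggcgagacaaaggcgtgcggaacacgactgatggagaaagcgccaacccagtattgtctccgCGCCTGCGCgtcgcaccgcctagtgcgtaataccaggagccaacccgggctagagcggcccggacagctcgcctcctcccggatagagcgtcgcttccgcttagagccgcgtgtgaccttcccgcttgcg
Mrps5 (chr2:127587176-127587475, plus strand, no match to these 4): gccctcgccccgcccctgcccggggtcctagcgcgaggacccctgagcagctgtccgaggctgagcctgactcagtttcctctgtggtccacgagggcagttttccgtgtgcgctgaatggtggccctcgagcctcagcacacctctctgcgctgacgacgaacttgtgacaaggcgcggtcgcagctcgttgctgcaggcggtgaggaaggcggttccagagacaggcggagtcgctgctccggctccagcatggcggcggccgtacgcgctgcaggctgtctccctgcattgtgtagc

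On the standard diet, no mitoribosomal gene passed the test between KO and WT islets. By edgeR's quasi-likelihood test 0 of 77 were higher and 0 lower (1.34% and 0.367% of all genes), and 0 in either direction at an unadjusted p under 0.05 (4.88% and 3.78% of all genes). DESeq2 called 0 members (342 of 16076 genes higher and 142 lower). The median log2 fold change was −0.01, with 36 above 0 and 41 below, and in no gene did the groups separate (7.52% and 7.32% of all genes higher and lower). Here too the KO libraries stood apart from one another. STD KO 2 lay above all 3 STD WT libraries for 59 genes and below for 0 (26.1% and 27.3% of all genes), while STD KO 1 lay below all 3 for 37 and STD KO 3 for 48 (25.2% and 26.8% of all genes).

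Mrps5 had the smallest p on this diet, with 22.8, 27.3 and 21.6 CPM in STD KO and 27.6, 25.4 and 31.5 CPM in STD WT. It was lower in 2 of the 3 STD KO libraries than in any STD WT library, with a log2 fold change of −0.24 (SE 0.13, edgeR adjusted p = 0.78). Mrps6, which encodes a platform protein of the small subunit, had 3.71, 5.75 and 5.86 CPM in STD KO and 3.03, 3.30 and 3.84 CPM in STD WT (0.59, SE 0.35, edgeR adjusted p = 0.811). Mrpl1, the L1 stalk protein, had 22.5, 27.0 and 20.3 CPM in STD KO and 28.6, 26.6 and 27.4 CPM in STD WT (−0.24, SE 0.16, edgeR adjusted p = 0.858). In each of these 3 genes 1 STD KO library lay within the WT range.

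Between the diets, KO islets showed for most members the same pattern of higher group means, and this comparison shares its HFD KO libraries with the one above. The median log2 fold change of HFD KO over STD KO was 0.44, and 74 of 77 were above 0 (47% of all genes). By edgeR 0 were called in either direction (0.0311% and 0.0124% of all genes), and DESeq2 called 0 (0.467% of all genes higher and 0.236% lower). At an unadjusted p under 0.05, 34 were higher and 0 lower (7.69% and 4.81% of all genes). Only Mrpl18 was higher without overlap (5.91% of all genes), at 11.9, 11.9 and 8.83 CPM in HFD KO and 8.66, 8.76 and 8.11 in STD KO. Without HFD KO 3, edgeR called 24 (3.81% of all genes), and 15 with the length correction too (2.06%), with 66 above 0 (46.4% of all genes). The length correction with all libraries gave 0 calls (0.0249% of all genes called higher). Without the library labelled HFD KO 2 and without the correction, edgeR called 0 (0.00609% of all genes), with a median of 0.22, 73 above 0 (49.7% of all genes) and 3 higher at an unadjusted p under 0.05 (4.28% of all genes). With the correction and without that library it also called 0, with a median of 0.16, 70 above 0 (50.5% of all genes) and 4 higher at an unadjusted p under 0.05 (5.07% of all genes).

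Mrpl17, a protein near the exit of the polypeptide tunnel, had 85.7, 96.2 and 53.2 CPM in HFD KO and 42.5, 60.8 and 40.9 CPM in STD KO. HFD KO 3 lay within the STD KO range, and the log2 fold change was 0.71 (SE 0.22, edgeR adjusted p = 0.34). Mrpl1 had 35.7, 39.0 and 26.5 CPM in HFD KO against 22.5, 27.0 and 20.3 in STD KO (0.53, SE 0.16, edgeR adjusted p = 0.34). Mrpl50 differed by 0.51 (SE 0.16, edgeR adjusted p = 0.34), with HFD KO 3 at 38.9 CPM and STD KO 2 at 39.5 CPM making the groups overlap. If the library labelled HFD KO 2 was left out, the log2 fold changes were 0.53 for Mrpl17, 0.42 for Mrpl1, 0.35 for Mrpl50 and 0.28 for Mrpl18.

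In WT islets no mitoribosomal gene passed the test between the diets. The median log2 fold change of HFD WT over STD WT was −0.01, with 37 of 77 above 0 (51.5% of all genes) and 0 higher without overlap (5.06% of all genes). EdgeR called 0 members and 0 of all genes (0% in each direction), and DESeq2 called 0 members (5 of 16076 genes higher and 33 lower). At an unadjusted p under 0.05, 0 members were higher and 1 lower (1.72% and 3.02% of all genes). That 1 gene was Mrpl47, another protein near the tunnel exit, with 7.72, 7.57 and 8.06 CPM in HFD WT and 8.76, 10.2 and 10.5 CPM in STD WT. The groups did not overlap (4.53% of all genes lower without overlap), with a log2 fold change of −0.33 (SE 0.15, edgeR adjusted p = 1.0). Mrpl3 and Mrpl35, next by p, had log2 fold changes of 0.19 (SE 0.16) and −0.15 (SE 0.15), both with an edgeR adjusted p of 1.0.

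The difference between the genotype effects of the diets was tested as an interaction. Its median over the members was 0.44 on the log2 scale, with 73 of 77 above 0 (50.9% of all genes). EdgeR called 0 members and 0 of all genes (0%), and 6 members were higher and 0 lower at an unadjusted p under 0.05 (3.78% and 4.12% of all genes). DESeq2 called 0 members (19 of 16076 genes higher and 11 lower). The smallest p-values were those of Mrpl1 (0.61, SE 0.22), Mrpl47 (0.56, SE 0.21) and Mrpl17 (0.74, SE 0.31), which were lower in STD KO than STD WT and higher in HFD KO than HFD WT by their means, each with an edgeR adjusted p of 0.621. Without the library labelled HFD KO 2 the median was 0.23, edgeR again called 0, and the values were 0.50 for Mrpl1, 0.50 for Mrpl47 and 0.56 for Mrpl17.

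Related genes were read from lists of the pathway. The 5 mitoribosomal proteins with other symbols resembled the members on the high fat diet: all 5 were above 0, with a median log2 fold change of 0.40, 0 called by edgeR or DESeq2 and 1 higher at an unadjusted p under 0.05. Among them, Chchd1 had 41.1, 74.2 and 21.2 CPM in HFD KO and 26.01, 26.6 and 21.6 CPM in HFD WT, and Dap3, a GTP-binding protein of the small subunit, had 45.1, 52.5 and 36.4 in HFD KO and 39.4, 38.5 and 33.1 in HFD WT. The library labelled HFD KO 2 was highest for both. Of 23 assembly and rRNA factors edgeR called 0 and DESeq2 called 3 higher, with 4 higher and 1 lower at an unadjusted p under 0.05 and a median of 0.21. All genes were called higher by DESeq2 in 6.56%, and were higher in 11.9% and lower in 12.4% at an unadjusted p under 0.05. Of 14 genes of mitochondrial DNA transcription and maintenance edgeR called 0 and DESeq2 called 1 higher, with 2 higher at an unadjusted p under 0.05 and a median of 0.29. EdgeR called 0 genes of these 3 lists without the library labelled HFD KO 2, and their medians were 0.20, 0.08 and 0.02 in the order given.

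In translation factors and tRNA synthetases edgeR called 1 gene each, lower in HFD KO, where 3.5% of all genes were, and 0 higher. DESeq2 called 1 translation factor and 2 synthetases lower (6.09% of all genes) and 0 higher, and 2 of each list were lower at an unadjusted p under 0.05 (12.4% of all genes). Of 14 tested translation factors the median was 0.06, and Lrpprc, which stabilises mitochondrial mRNAs, had 43.7, 43.5 and 46.5 CPM in HFD KO and 65.0, 60.3 and 75.9 CPM in HFD WT. Its groups lay far apart, with a log2 fold change of −0.59 (SE 0.13, edgeR adjusted p = 0.0157). The call was lost without HFD KO 1 (edgeR adjusted p = 0.075), the library labelled HFD KO 2 (0.0512, log2 fold change −0.57) or HFD WT 3 (0.0941). It was also lost with the compared groups alone (0.0602) and with limma-trend on log2(FPKM + 1) (0.0628) or log2(FPKM + 0.1) (0.0617). Of 22 mitochondrial aminoacyl-tRNA synthetases the median was −0.01, and Aars2, the alanyl-tRNA synthetase, had 4.27, 5.39 and 6.79 CPM in HFD KO and 9.01, 9.18 and 9.61 CPM in HFD WT. Again no library overlapped (−0.75, SE 0.19, edgeR adjusted p = 0.0381), but the call was lost with the replicate block (adjusted p = 0.0637) and without any 1 library other than STD KO 2, STD WT 1 or HFD KO 3 (adjusted p from 0.0502 to 0.155). Its log2 fold change without the library labelled HFD KO 2 was −0.74 (adjusted p = 0.102). With no filter on low counts the adjusted p was 0.0875, with the compared groups alone 0.134, and with limma-trend 0.0699 and 0.0711. The list medians without the library labelled HFD KO 2 were 0.03 for translation factors and −0.01 for synthetases. In the other 4 contrasts edgeR called 0 genes of these 5 lists. At an unadjusted p under 0.05, at most 5 of a list were higher and 1 lower. Over all genes, by contrast, 1.72% to 7.69% were higher and 3.02% to 4.81% lower. DESeq2 called 3 in all. Between diets these were 1 translation factor higher in WT (5 of 16076 genes were) and 1 synthetase higher in KO (75 of 16076). The third was 1 translation factor lower in the interaction (11 of 16076).

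Of the RNAs that the mitoribosome contains or translates, edgeR and DESeq2 called 0 in each of the 5 contrasts, with 1 in all at an unadjusted p under 0.05, on the standard diet. On the high fat diet the 14 tested of 15 mitochondrially encoded rRNAs and mRNAs had log2 fold changes from −0.17 for mt-Nd5 to 0.80 for mt-Co2 (SE 0.22 and 0.44), a median of 0.13, and edgeR adjusted p-values of 0.246 and above. Of these 14, 10 were above 0 (49.8% of all genes). Without the library labelled HFD KO 2 the median was −0.10 and 4 were above 0 (49.5% of all genes), with 0 calls by edgeR and 0 at an unadjusted p under 0.05 in either direction. The 13 mRNAs summed to 14170, 21280 and 19330 unscaled CPM in HFD KO and to 18560, 16900 and 17740 in HFD WT. The HFD KO libraries lay on both sides of the HFD WT range. Of the HFD KO libraries where mitoribosomal protein genes were high, HFD KO 1 had the lowest mRNA sum of the 6, and the library labelled HFD KO 2 the highest.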

How the data were processed

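For each of the 12 libraries the authors deposited read counts per gene and FPKM values for the same 54532 Ensembl genes. Counts are whole and not normalized, and the deposited FPKM matched the count over gene length times total count in 257939 of 257939 nonzero values (relative tolerance 0.001). Reads were aligned to mm10, and TopHat2, Cufflinks and DESeq were used, per the submitters' processing notes. Not given in the sources used here are their versions and roles, the annotation, the counter and whether strand was used. Per the labels' protocols, islets were taken by collagenase digestion and density gradient. Symbols, biotypes and coordinates came from GENCODE M21 and promoters from RefSeq (GRCm38.p6).

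Counts were tested with edgeR 4.0.16 in R 4.3.3: filterByExpr (minimum count 10, total 15; 16076 genes kept), TMM scaling, 1 mean per group over 12 libraries and a robust quasi-likelihood fit. P-values were Benjamini-Hochberg adjusted over all genes (threshold 0.05). The common biological coefficient of variation over all genes tested was 0.307. It does not give the spread of single members, and depth limits the least counted of them. Length correction used per-library offsets from a loess of log2 deviation on length (span 0.5). Alternatives were DESeq2 1.42.0, limma 3.58.1 on FPKM, other filters and scalings, a replicate block and left-out libraries. HFD KO and HFD WT libraries with the same number deviated together (r = 0.515, 0.41 and 0.336). The numbers were therefore taken to pair them for the differences by pair and for the replicate block, an alternative. The main fit used no pairs, and the labels state none.

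Named genes were Mrpl10, Mrpl12, Mrpl58, Mrps5 and Mrps18a, b and c, those called or otherwise the 3 with the smallest p per contrast, the 3 highest and lowest by FPKM per subunit, and called related genes. Mrpl14, Mrpl41 on the high fat diet, Mrps2, Chchd1 and Dap3 were added after their values were seen. The members and lists were chosen with earlier results of these data known. Motif patterns were written after 3 promoters had been seen, and the longer ones were shortened to at most 9 letters after a first search, which changed their counts and added the NRF1 match of Mrpl10.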

Additional observations from a re-analysis of the deposited data

How the results depend on the processing

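No called gene changed direction in any alternative. For KO against WT on the high fat diet, where edgeR called 1 mitoribosomal gene, the count was 5 with DESeq2 (6.56% of all genes were called higher), 3 with limma-trend on log2(FPKM + 1) and 3 on log2(FPKM + 0.1) (4.5% each), 2 with a stricter filter (1 CPM in 6 libraries; 4.27%), 2 with length offsets (4.67%), and 0 with the compared groups alone (2.02%). Leaving out 1 library gave 0 to 39. With length offsets it was 0 without the library labelled HFD KO 2 and, chosen after seeing the data, 28 without HFD KO 3. Leaving out STD WT 3 and the library labelled HFD KO 2 together, also chosen after seeing the data, gave 0. The median log2 fold change ranged from 0.18 to 0.62 over 26 alternatives.

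For diet in KO islets the count of 0 became 0 to 24 with 1 library left out and 15 with length offsets without HFD KO 3. For the interaction, the median of 0.44 ranged from 0.15 to 0.62 over 24 alternatives. It was lowest with length offsets without the library labelled HFD KO 2, and 0.19 without that library and STD WT 3. It was highest without HFD KO 3, where edgeR still called 0, and 0.57 without STD KO 2. On the standard diet the median ranged from −0.16 to 0.11 over 25 alternatives, and in WT islets between diets from −0.05 to 0.04, with 0 calls throughout. The cause of these shifts was not tested. Fits that left 2 libraries in a group took the spread from all groups.

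With the replicate block, 1 gene was called on the high fat diet (Mrps18a in place of Mrpl50), with a median of 0.41, and 1 with block and length offsets (3.88% and 4.24% of all genes); the block gave 0 calls in every other contrast. Outside the high fat pair, the same number did not mark deviations shared by every pair (standard diet r = −0.00396, −0.175 and −0.234), and 0 of 6 libraries on the standard diet, 3 of 6 between diets in KO and 0 of 6 in WT correlated best with their own number. Depth limits Mrps18c most, with 22 counts in its lowest library.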
